A study of Mus musculus with 4 samples.

Results

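The genes described here are lipocalin 2 (Lcn2) and 9 genes of iron handling (Hamp, Tfrc, Tfr2, Trf, Fth1, Slc40a1, Hmox1, Hfe and Cp). They were taken by gene symbol from the platform annotation of the array, with every probe set paired with them, which gave 10 of 19324 annotated genes and 27 of 45101 probe sets. All 10 had at least 1 probe set, and no member was lost to a filter. Their values were read on 4 Affymetrix mouse arrays of liver RNA, 1 array per genotype, each with RNA combined from 3 mice at 5 weeks of age. The series asks what the loss of ribosomal protein S6, a component of the small ribosomal subunit, does to the liver, without and with a c-Myc transgene expressed in hepatocytes.

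The ΔS6 array (labelled DS6, S6-deficient) holds liver of Rps6 lox/lox:Alb-Cre mice, in which Cre under the albumin promoter deletes the floxed Rps6 gene in hepatoblasts and their progeny. The deletion is not complete in all cells, so the tissue is a mosaic. The ΔS6:c-Myc array (labelled DS6 Myc) holds liver with the same floxed Rps6 gene and Cre, and with the Alb-c-Myc transgene. The extent of deletion was not the same. The study reported more recombination of Rps6 and less Rps6 mRNA in ΔS6:c-Myc than in ΔS6 livers, with RPS6 protein unchanged. The Alb-c-Myc array (labelled Myc) holds liver with the transgene, also driven by albumin promoter sequences, and intact Rps6. The WT array (labelled wild type) holds liver with intact Rps6 and no transgene, and the study's controls were Rps6 lox/lox mice without Cre. The mice had a mixed hybrid background, and the labels describe them as male and not fasted. With 1 array of pooled RNA per genotype, no difference below has a replicate check and no test was possible, so ratios are given as descriptions of these 4 pools. In whole liver, fewer cells of a type and less RNA per cell cannot be told apart.

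Values are log2 expression values made by RMA (robust multi-array average), in which a difference of 1 is a 2-fold ratio, and a ratio is called 2-fold when it reaches that size in either direction. The 4 array medians lay between 6.85 and 6.88. The WT array stood apart in Xist, which is transcribed from the inactive X, at 5.88 in ΔS6, 6.33 in ΔS6:c-Myc, 6.29 in Alb-c-Myc and 11.84 in WT, which goes against a label of male mice only. It also carried pancreatic enzyme mRNA, with Cpb1 at 4.66 in ΔS6, 5.33 in ΔS6:c-Myc, 6.10 in Alb-c-Myc and 9.61 in WT. All 7 pancreatic acinar markers measured were 2-fold lower in ΔS6 than on the WT array, and 0 of 7 differed so between ΔS6:c-Myc and Alb-c-Myc. The 2-fold results for ΔS6 over WT are therefore also given against the Alb-c-Myc array. ΔS6 and Alb-c-Myc differ in both Rps6 and the transgene, so a ratio between them is not one of the deletion alone. The 9 probe sets shared by Rps6 and a pseudogene had negative ratios without exception, both for ΔS6 over WT (median log2 ratio -0.29) and for the deletion under the transgene (median -1.76). The 2 probe sets of Rps6 alone went in opposite directions in both comparisons. The mean of 10 hepatocyte markers was 14.47 in ΔS6, 14.40 in ΔS6:c-Myc, 14.51 in Alb-c-Myc and 14.61 in WT, so all 4 arrays carried them at high levels.

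The liver sets the iron level of the body. Hepatocytes take up iron bound to transferrin, store it in ferritin and secrete hepcidin, the peptide product of Hamp, which triggers the removal of ferroportin (Slc40a1), the only known iron exporter of mammalian cells, from cell surfaces. Hepcidin transcription responds to BMP and SMAD signalling, in which the iron sensors HFE and transferrin receptor 2 take part, and to interleukin 6 and STAT3. Lipocalin 2 is a secreted protein of the acute phase that binds bacterial siderophores and so withholds iron from microbes, and heme oxygenase 1 (Hmox1) frees iron by breaking down heme.

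Promoters are shown for the genes whose levels the account turns on, Lcn2 and the hepcidin pair Hamp and Hamp2, as the 250 bases before the start of transcription, 5′ to 3′ on the coding strand, from the RefSeq promoters of mouse build GRCm38.p6. The positions are chr2:32387740-32387989 for Lcn2, chr7:30944030-30944279 for Hamp and chr7:30924182-30924431 for Hamp2, all 3 on the minus strand. Capitals mark the motifs GGCGCC (core of the BMP-responsive element) and TTCNNNGAA (STAT site) in Hamp and Hamp2, and GGGNNNNNCC (a loose NF-kB-like site) in Lcn2, each searched on both strands.
Lcn2: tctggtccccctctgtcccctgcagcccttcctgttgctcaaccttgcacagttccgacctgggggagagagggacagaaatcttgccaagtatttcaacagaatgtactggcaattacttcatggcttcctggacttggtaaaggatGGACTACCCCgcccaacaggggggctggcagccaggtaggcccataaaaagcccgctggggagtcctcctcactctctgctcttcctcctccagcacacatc
Hamp: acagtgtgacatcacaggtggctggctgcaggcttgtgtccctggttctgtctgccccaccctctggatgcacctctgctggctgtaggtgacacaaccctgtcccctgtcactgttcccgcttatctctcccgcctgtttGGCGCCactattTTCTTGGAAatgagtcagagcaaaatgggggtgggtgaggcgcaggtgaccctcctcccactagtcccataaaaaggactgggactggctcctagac
Hamp2: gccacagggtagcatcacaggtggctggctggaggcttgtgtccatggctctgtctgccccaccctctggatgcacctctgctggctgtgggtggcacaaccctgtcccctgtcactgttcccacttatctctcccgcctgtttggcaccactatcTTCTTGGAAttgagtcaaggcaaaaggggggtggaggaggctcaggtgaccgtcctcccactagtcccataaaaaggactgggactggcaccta
The Hamp and Hamp2 windows were 89.7% identical over 253 aligned positions, with 20 mismatches and 6 gap positions. GGCGCC lay 109 to 104 bases before the start in Hamp and was not in the Hamp2 window, and TTCTTGGAA lay 97 to 89 bases before the start in Hamp and 94 to 86 in Hamp2. In Lcn2 the NF-kB-like match, GGACTACCCC as read on the printed strand, lay 102 to 93 bases before the start. None of these matches overlapped another. The Hamp2 window also held an NF-kB-like match, not in capitals, 157 to 148 bases before the start. Over 32851 promoter windows of the same length, 9.59% held GGCGCC, 7.02% TTCNNNGAA and 45.8% GGGNNNNNCC, so the last is a common match. Hmox1, Slc40a1 and Trf had no promoter in the RefSeq table and were not searched. The other 7 of the 10 members had promoters there, with 3 windows for Tfr2 and 2 each for Tfrc, Fth1 and Cp. A gene was counted when any of its windows matched, so the gene counts are not alike to the shares, which are per window. GGGNNNNNCC was in the windows of 5 of them (Lcn2, Tfrc, Tfr2, Fth1 and Cp, with overlapping matches on both strands in Tfr2), GGCGCC in 2 (Hamp and Tfrc) and TTCNNNGAA in 1 (Hamp). CACGTG, the E-box that c-Myc can bind, was in none of their windows (6.02% of all). Among the 7 members searched, TGACNNNGC, the core of the antioxidant response element (10.2% of all), was in the Hfe window only. A match is a stretch of letters and not a measured binding site.

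Lcn2 was by far the most changed member. Its single probe set read 14.02 in ΔS6, 10.59 in ΔS6:c-Myc, 8.94 in Alb-c-Myc and 8.87 in WT. Lcn2 was thus high where Rps6 was deleted without the transgene, intermediate where both were present, and at nearly the same low value on both arrays with intact Rps6. The ratio was 35.6-fold for ΔS6 over WT (log2 ratio 5.15) and 33.9-fold for ΔS6 over Alb-c-Myc (5.08), so it does not rest on the WT array. Under the transgene the deletion gave 3.14-fold (1.65 for ΔS6:c-Myc against Alb-c-Myc), which differs by -3.50 on the log2 scale from the ratio without it. The extent of the deletion also differs between these livers, as given above. Lcn2 in ΔS6:c-Myc was 3.30-fold above WT (1.72), and ΔS6:c-Myc was 10.8-fold below ΔS6 (-3.43). The transgene with intact Rps6 gave a log2 ratio of 0.07 over WT.

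**Figure D1:**
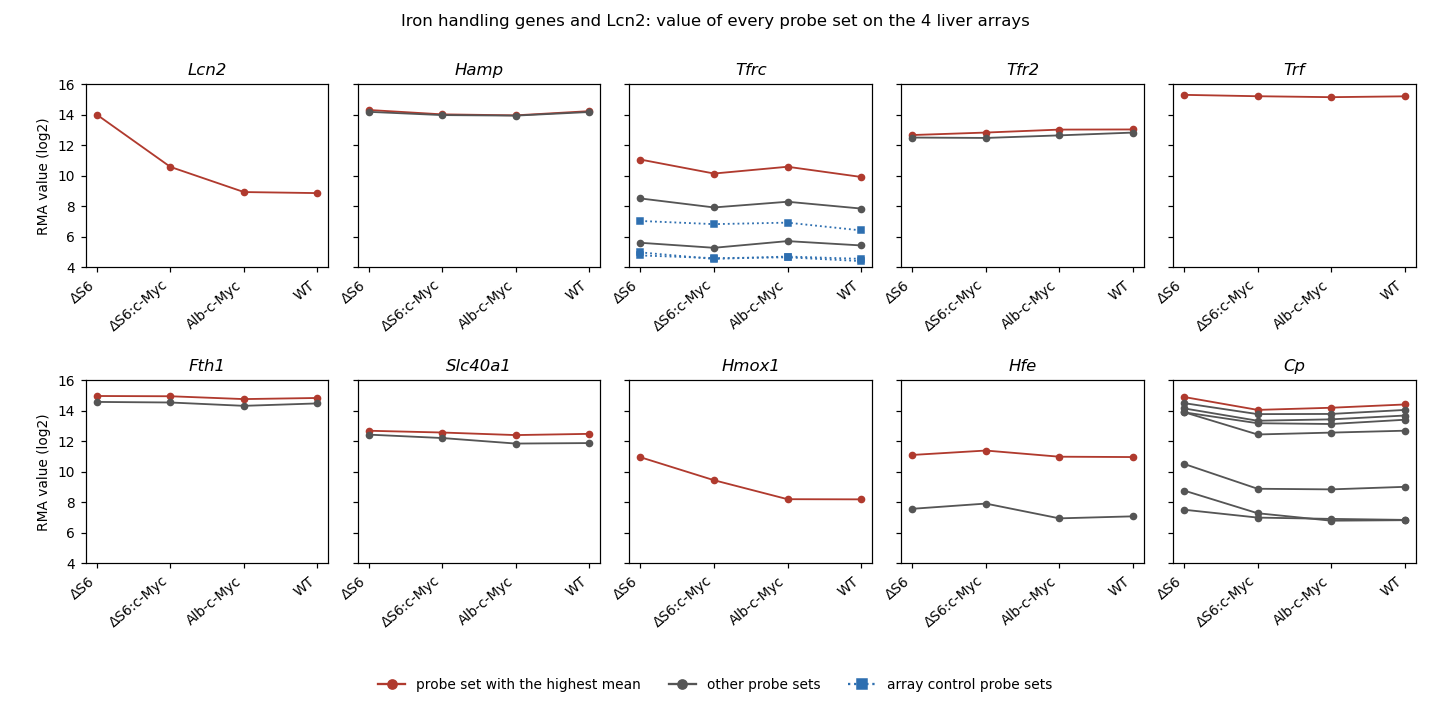
RMA log2 value (y axis) of each of the 27 probe sets of the 10 genes on the 4 arrays (x axis), 1 panel per gene and 1 line per probe set, with array control probe sets of Tfrc dotted. Lcn2 and Hmox1 fall stepwise over ΔS6, ΔS6:c-Myc and the pair of arrays with intact Rps6, while Hamp, Trf and Fth1 are nearly flat near the top of the scale.

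Hmox1, the heme-degrading enzyme, followed the same order at a smaller size. It read 10.96 in ΔS6, 9.45 in ΔS6:c-Myc, 8.20 in Alb-c-Myc and 8.19 in WT. The ratio was 6.80-fold for ΔS6 over WT (2.77) and as large over Alb-c-Myc (2.76). ΔS6:c-Myc was 2.37-fold above Alb-c-Myc (1.25) and 2.85-fold below ΔS6 (-1.51). Lcn2 and Hmox1 were the only members with a 2-fold ratio for the deletion both without and with the transgene.

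Markers of other cell types moved with Lcn2 and Hmox1, which Kupffer cells, neutrophils and injured epithelia can also express. The mean over 12 macrophage and Kupffer cell markers was 11.97 in ΔS6, 10.55 in ΔS6:c-Myc, 9.74 in Alb-c-Myc and 9.82 in WT, and 11 of the 12 reached 2-fold upward in ΔS6 against WT. The mean over 7 bile duct and progenitor markers was 11.06, 7.86, 6.75 and 6.81 on the same arrays, with 7 of 7 reaching 2-fold upward in the same comparison. The mean over 10 neutrophil markers was 9.38, 6.64, 6.57 and 6.69, with 6 of 10 doing so. Between ΔS6:c-Myc and Alb-c-Myc 2 of 12 macrophage markers, 2 of 7 bile duct markers and 0 of 10 neutrophil markers were 2-fold higher (median log2 ratios 0.80, 0.79 and 0.09). The neutrophil means of ΔS6:c-Myc and Alb-c-Myc were thus close, at 6.64 and 6.57. RMA gives no value of 0, and of the 10 neutrophil markers 0 were below 6 in ΔS6, 1 in ΔS6:c-Myc, 2 in Alb-c-Myc and 1 in WT. Of 7 stellate cell markers 4 were 2-fold higher in ΔS6 against WT (median 1.70) and 0 in ΔS6:c-Myc against Alb-c-Myc (0.19). Of 7 sinusoidal endothelial markers 0 reached 2-fold in the first comparison (0.12) and 1 was lower in the second (Lyve1, median of the list -0.10). Among all genes 7.24% were 2-fold higher for ΔS6 over WT and 1.99% for ΔS6:c-Myc over Alb-c-Myc. No share over all genes was counted for ΔS6 over Alb-c-Myc. There, 11 of 12 macrophage, 7 of 7 bile duct, 6 of 10 neutrophil and 5 of 7 stellate cell markers were 2-fold higher. The part of these cells in the Lcn2 and Hmox1 ratios was not tested.

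The genes whose 3 log2 ratios over WT lay nearest to those of Lcn2, by Euclidean distance among 14359 genes on these 4 arrays, were Lgals2, Marco, Scara3, Cd14 and Cd24a, at distances of 0.19 to 0.63. Lgals2, a galectin, was nearest, at 11.88 in ΔS6, 8.64 in ΔS6:c-Myc, 7.05 in Alb-c-Myc and 6.88 in WT. Marco, a scavenger receptor of macrophages, read 13.07, 9.60, 8.08 and 7.78 in the same order. Marco and Cd24a are also in the macrophage and bile duct marker lists above, and Cd14 is the lipopolysaccharide co-receptor of myeloid cells. Lgals2 and Scara3 are in none of the marker lists. Marco, at 5.29 for ΔS6 over WT, had the highest ratio of the macrophage list, whose median was 1.87.

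**Figure D2:**
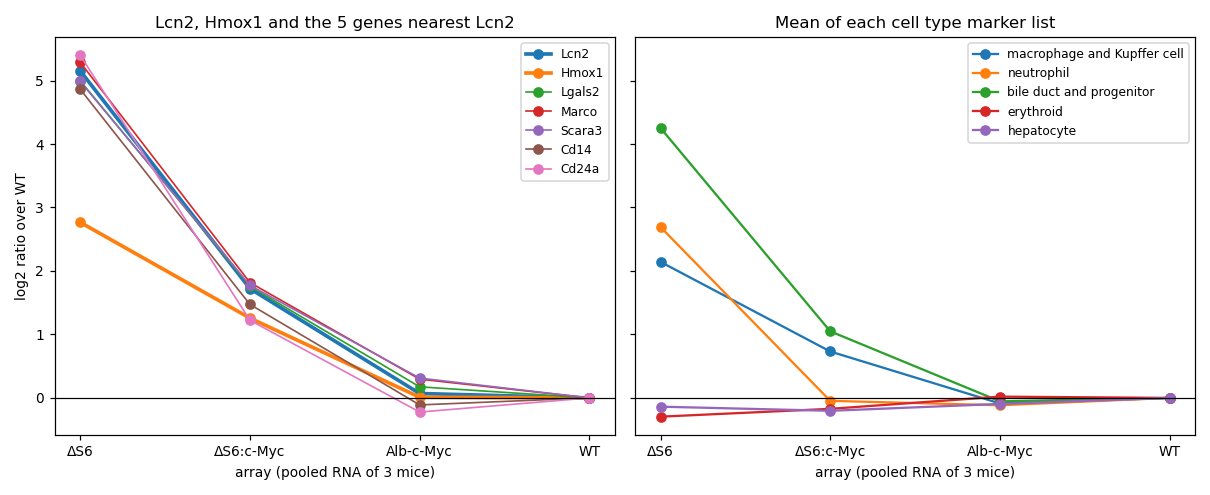
Log2 ratio over WT (y axis) on the 4 arrays (x axis), for Lcn2, Hmox1 and the 5 genes nearest Lcn2 (left panel) and for the mean of 5 cell type marker lists (right panel). Lcn2 and its neighbours lie between 4.86 and 5.40 in ΔS6, and the bile duct, macrophage and neutrophil means are also highest there, while the hepatocyte and erythroid means stay near 0.

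Hamp, the hepcidin gene, hardly differed among the 4 arrays. Its 1 probe set read 14.33 in ΔS6, 14.04 in ΔS6:c-Myc, 13.97 in Alb-c-Myc and 14.25 in WT, and the other 14.20, 13.99, 13.96 and 14.19. The log2 ratios were 0.08 and 0.01 for ΔS6 over WT, 0.06 and 0.03 for ΔS6:c-Myc against Alb-c-Myc, and 0.35 and 0.25 for ΔS6 against Alb-c-Myc. The Hamp value in WT was above that of 99.6% of probe sets, and the highest values of any probe set on the arrays were 15.39 to 15.46, so Hamp lay near the top of the scale. The genes nearest Hamp in their 3 ratios were Top2b, Anxa6, Tiam1, Eva1c and Rora, at distances of 0.03 to 0.06, and their log2 ratios lay between -0.30 and 0.10 in the 5 comparisons.

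Hamp2, the neighbouring duplicate of Hamp, was read by 2 probe sets. The brighter one read 12.10 in ΔS6, 11.61 in ΔS6:c-Myc, 13.83 in Alb-c-Myc and 14.60 in WT. It was lower on both arrays with Rps6 deleted, 5.66-fold below WT in ΔS6 (-2.50) and 4.64-fold below Alb-c-Myc in ΔS6:c-Myc (-2.21). For ΔS6 over Alb-c-Myc the log2 ratio was smaller in size, at -1.73, and Alb-c-Myc itself was below WT (-0.77). The dim one read 6.05, 6.24, 6.12 and 6.37 and showed no such difference (-0.32 and 0.11). The name of the brighter probe set ends in _x_at, which marks probes that can also bind other transcripts, and Hamp and Hamp2 are duplicates of each other. How far each probe set reads the other gene was not analysed here, so the split between them is uncertain.

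Of 25 measured genes of hepcidin regulation, Hamp2 included, 5 reached 2-fold upward and 2 downward for ΔS6 over WT, and the median log2 ratio was 0.38. The background was a median of -0.05 over 18194 genes, of which 7.24% were 2-fold higher and 2.54% lower. The 5 higher ones were the BMP and SMAD target genes Id1, Id3, Smad6 and Atoh8 and the STAT3 target Socs3, a feedback inhibitor of cytokine signalling. Id1 read 11.45 in ΔS6, 9.41 in ΔS6:c-Myc, 8.02 in Alb-c-Myc and 8.05 in WT, a ratio of 10.6-fold for ΔS6 over WT. Id1, like Lcn2, was intermediate in ΔS6:c-Myc, with a log2 ratio of 1.39 over Alb-c-Myc. The ratios for the deletion without and with the transgene were 1.54 and 0.67 for Id3, 1.31 and 0.56 for Smad6, and 1.06 and 0.19 for Atoh8. Smad7 and Id2, also on the list, were within 2-fold at their probe sets with the highest mean. These ratios were 0.48 and -0.09 for Smad7 and 0.69 and 0.14 for Id2. Over the 3 probe sets of Id2 the ratio without the transgene ran from 0.69 to 1.00.

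Socs3 went the other way under the transgene. It read 9.60 in ΔS6, 8.11 in ΔS6:c-Myc, 8.87 in Alb-c-Myc and 8.49 in WT, with log2 ratios of 1.11 for ΔS6 over WT and of -0.76 for the deletion under the transgene. Its 3 probe sets had ratios of 1.11 to 1.94 in the first comparison and of -0.77 to -0.67 in the second. Cebpa, a hepatocyte transcription factor that binds the Hamp promoter, read 12.25 in ΔS6, 12.96 in ΔS6:c-Myc, 13.44 in Alb-c-Myc and 13.35 in WT, a log2 ratio of -1.11 for ΔS6 over WT. Between ΔS6:c-Myc and Alb-c-Myc 1 of the 25 genes was 2-fold higher (Id1) and 1 lower (Hamp2, the Hamp duplicate, at its brighter probe set). The median of the 25 was -0.13, against -0.01 over all genes, of which 1.99% were higher and 1.36% lower. The ligands Bmp2 and Bmp6 (-0.48 and 0.56 for ΔS6 over WT), the BMP co-receptor gene Hjv (-0.33) and Tmprss6, the protease that cleaves hemojuvelin (-0.52), stayed within 2-fold in both comparisons.

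**Figure D3:**
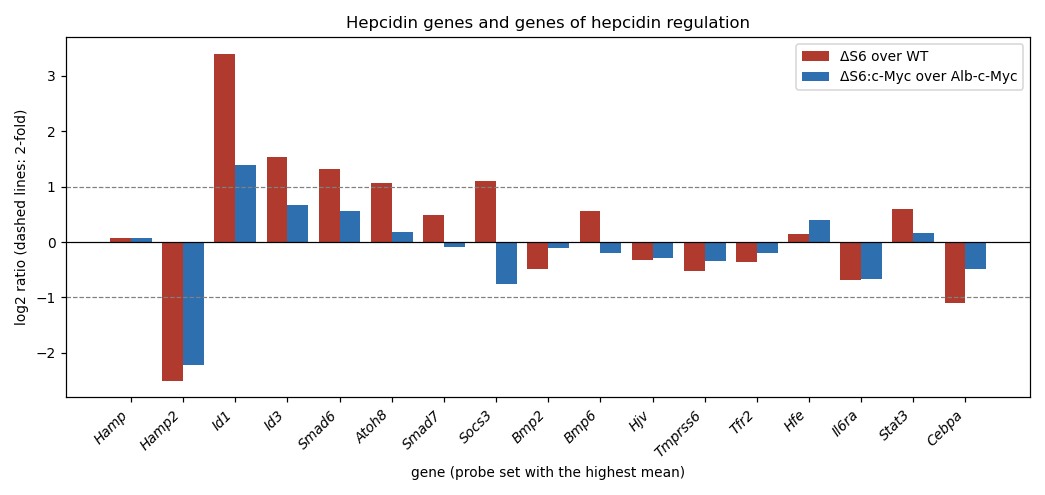
Log2 ratio (y axis, dashed lines at 2-fold) of Hamp, Hamp2 and genes of hepcidin regulation (x axis, probe set with the highest mean) for ΔS6 over WT (red) and for ΔS6:c-Myc against Alb-c-Myc (blue). Hamp is near 0 in both, Id1, Id3 and Smad6 are above 0 in both, and Hamp2 is below -2 in both. Socs3 is above 0 in the first and below 0 in the second. Smad7 is at 0.48 in the first and -0.09 in the second.

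The iron sensors of the hepatocyte surface stayed within 2-fold in all 5 comparisons. Tfr2, which binds iron-loaded transferrin, read 12.68 in ΔS6, 12.84 in ΔS6:c-Myc, 13.04 in Alb-c-Myc and 13.05 in WT, with log2 ratios of -0.37 and -0.33 for ΔS6 over WT at its 2 probe sets and of -0.19 and -0.17 for ΔS6:c-Myc over Alb-c-Myc. Hfe, the class I-like protein mutated in hereditary hemochromatosis, read 11.11, 11.40, 10.99 and 10.97 at 1 probe set and 7.57, 7.92, 6.95 and 7.08 at the other. Hfe was highest in ΔS6:c-Myc at both, and its ratios of ΔS6:c-Myc over Alb-c-Myc were 0.41 and 0.97, the second just short of 2-fold.

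Tfrc, the transferrin receptor through which most cells take up iron, reached 2-fold in ΔS6 against WT at 1 of its 6 probe sets. The probe set with the highest mean read 11.07 in ΔS6, 10.15 in ΔS6:c-Myc, 10.60 in Alb-c-Myc and 9.93 in WT. The ratio of ΔS6 over WT was 2.21-fold (1.14), but against Alb-c-Myc it was 0.47 on the log2 scale, and the mean over the 6 probe sets was 0.57, both within 2-fold. All 6 probe sets had ratios above 0 for ΔS6 over WT (0.17 to 1.14) and for Alb-c-Myc over WT (0.15 to 0.67), so WT was lowest against both. All 6 were below 0 for ΔS6:c-Myc over Alb-c-Myc (-0.45 to -0.05). Of the 6, 3 are array controls placed along the Tfrc transcript. The 3′ control exceeded the 5′ control by 2.06 in ΔS6, 2.29 in ΔS6:c-Myc, 2.23 in Alb-c-Myc and 1.87 in WT, the last being the smallest. Below 6 on all 4 arrays were 1 other probe set (5.60 in ΔS6) and the 5′ and middle controls (4.97 and 4.77 in ΔS6). Ratios of these dim probe sets, the mean over the 6 and the 3′ to 5′ differences are therefore uncertain. Erythroid precursors are rich in this receptor. Of 9 erythroid markers measured, 0 were 2-fold higher and 2 lower than in WT (Alas2 -1.15 and Klf1 -1.75, and -1.53 and -1.54 against Alb-c-Myc), and their mean was 7.20 in ΔS6, 7.32 in ΔS6:c-Myc, 7.51 in Alb-c-Myc and 7.49 in WT. Slc4a1, the anion exchanger of red cells, was above 0 at all 3 of its probe sets (0.30 to 0.57), and 4 of the 9 markers lay below 6 in ΔS6 and in WT. The part of erythroid cells in the Tfrc ratio was not tested.

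Transferrin, ferritin and ferroportin mRNAs stayed within 2-fold in all 5 comparisons. Trf, the plasma iron carrier, whose single probe set is also annotated to Srprb, read 15.32 in ΔS6, 15.23 in ΔS6:c-Myc, 15.17 in Alb-c-Myc and 15.22 in WT. Fth1, the heavy chain of ferritin, read 14.98, 14.96, 14.78 and 14.85 at 1 probe set and differed by no more than 0.22 in any of the 5 comparisons at either. Slc40a1, the exporter that hepcidin removes, read 12.70, 12.58, 12.41 and 12.49 at 1 probe set and 12.44, 12.22, 11.86 and 11.89 at the other. Slc40a1 was highest in ΔS6 at both, with ratios of 0.20 and 0.55 over WT and of 0.28 and 0.59 over Alb-c-Myc. Trf and Fth1 lay at the upper end of the array scale, as Hamp did.

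Cp, ceruloplasmin, the copper-containing ferroxidase of plasma that loads iron onto transferrin, was higher in ΔS6 at all 8 of its probe sets. The one with the highest mean read 14.92 in ΔS6, 14.07 in ΔS6:c-Myc, 14.21 in Alb-c-Myc and 14.42 in WT, a log2 ratio of 0.49 for ΔS6 over WT. The 8 ratios ran from 0.45 to 1.95 with a median of 0.58, and 3 reached 2-fold. Those 3 read 13.92, 10.52 and 8.77 in ΔS6, 12.45, 8.89 and 7.28 in ΔS6:c-Myc, 12.58, 8.85 and 6.79 in Alb-c-Myc, and 12.70, 9.02 and 6.83 in WT, ratios of 2.32-fold, 2.84-fold and 3.85-fold for ΔS6 over WT. Cp therefore has a direction but no single size, since its probe sets differ more than 2-fold in their ratios. Against Alb-c-Myc all 8 ratios of ΔS6 were also above 0 (0.60 to 1.98), with the same 3 past 2-fold. Under the transgene there was no common direction, with 4 probe sets above 0 and 4 below for ΔS6:c-Myc over Alb-c-Myc (-0.14 to 0.49), and ΔS6:c-Myc was below ΔS6 at all 8 (-1.63 to -0.52).

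Over the 27 probe sets, 6 reached 2-fold upward and 0 downward for ΔS6 over WT (Lcn2, Hmox1, 1 of Tfrc and 3 of Cp), against 5.18% higher and 2.07% lower of all probe sets. The median log2 ratio of the 27 probe sets was 0.47, beside -0.07 for all, and Cp holds 8 of the 27 and Tfrc 6. By gene the median of the 10 members was 0.17, beside -0.05 for all genes. By the same reading 3 of the 10 were higher and 0 lower, against 7.24% and 2.54% of all genes. Against Alb-c-Myc the probe sets of Lcn2, Hmox1 and Cp still passed 2-fold in ΔS6 and that of Tfrc did not. No share over all probe sets was counted for that comparison. ΔS6:c-Myc against Alb-c-Myc gave 2 higher and 0 lower (Lcn2 and Hmox1), against 1.48% and 1.07% of all. ΔS6:c-Myc against ΔS6 gave 0 higher and 5 lower, against 0.581% and 3.07% of all, with 24 of 27 probe sets below 0 and a median of -0.33 beside 0.06. The 5 lower ones were the probe sets of Lcn2 and Hmox1 and the 3 of Cp. By gene the median of the 10 members in that comparison was -0.20, beside 0.05 for all genes. ΔS6:c-Myc against WT gave 2 higher and 0 lower, against 2.16% and 1.51%. Alb-c-Myc against WT gave 0 in either direction, against 0.284% and 0.246%. The comparisons share arrays, so their counts are not independent of each other, and several probe sets read the same gene. Probe sets of 1 gene, over 3379 genes with bright probe sets, differed in their ratios by an SD of 0.27 for ΔS6 over WT and of 0.24 for ΔS6:c-Myc against Alb-c-Myc. This is a spread between probes and not between animals.

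**Figure D4:**
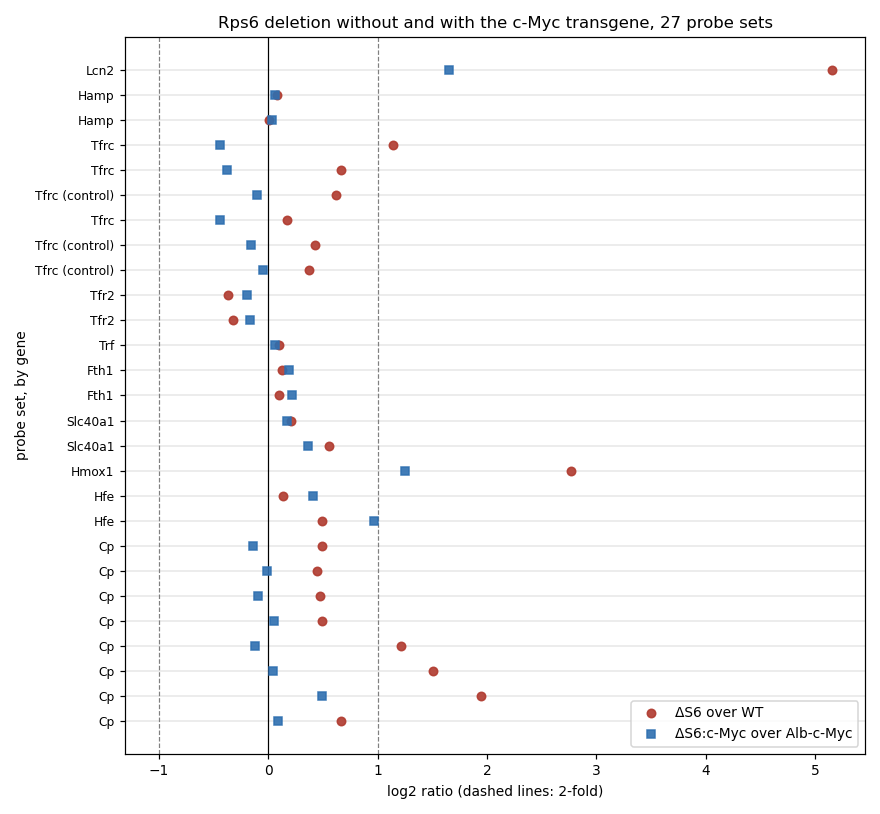
Log2 ratio (x axis, dashed lines at 2-fold) of each of the 27 probe sets (rows, by gene) for ΔS6 over WT (red circles) and for ΔS6:c-Myc against Alb-c-Myc (blue squares). Lcn2 and Hmox1 pass 2-fold in both, 3 Cp probe sets and 1 Tfrc probe set only for ΔS6 over WT, and all 6 Tfrc probe sets lie right of 0 in the first comparison and left of it in the second.

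The wider pathway held 74 measured genes of 78 listed. In ΔS6 against WT 8 were 2-fold higher and 3 lower, with a median of -0.02, against 7.24% higher and 2.54% lower and a median of -0.05 over all genes. In ΔS6:c-Myc against Alb-c-Myc 1 was higher and 1 lower, with a median of -0.06, against 1.99% and 1.36% and a median of -0.01 over all genes. Outside hepcidin regulation, the higher ones were Steap2, Cd163 and Flvcr1 and the lower one was Bdh2. Steap2, a metalloreductase, read 9.49 in ΔS6, 7.32 in ΔS6:c-Myc, 7.14 in Alb-c-Myc and 7.63 in WT, with ratios of ΔS6 over WT of 0.08 to 1.86 over its 5 probe sets. Cd163, the hemoglobin and haptoglobin receptor of macrophages, read 9.53, 8.08, 7.37 and 8.04, which moved with the macrophage markers given above. Flvcr1, a heme exporter, read 8.39, 7.79, 7.79 and 7.32 at 1 probe set (1.07 for ΔS6 over WT), and its other probe set had a ratio of -0.03.

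Against Alb-c-Myc, Socs3 (0.73) and Flvcr1 (0.60) were within 2-fold in ΔS6, and Alb-c-Myc itself was above WT for them (0.38 and 0.47). The other pathway genes named as 2-fold changed in ΔS6 passed 2-fold in the same direction there too. Among them were Id1 (3.42), Steap2 (2.36) and Cd163 (2.16), and Hamp2 (-1.73), Cebpa (-1.19) and Bdh2 (-2.33). At their probe sets with the highest mean, Fgl1 (1.70) and Steap4 (1.03) passed 2-fold against Alb-c-Myc but not against WT (0.89 and 0.82). The other Steap4 probe set had 1.04 for ΔS6 over WT.

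Bdh2, a dehydrogenase reported to make a mammalian siderophore that lipocalin 2 can bind, went opposite to Lcn2. It read 7.47 in ΔS6, 9.51 in ΔS6:c-Myc, 9.80 in Alb-c-Myc and 9.67 in WT, and was 4.60-fold below WT in ΔS6 (-2.20). With the transgene the ratio of ΔS6:c-Myc over Alb-c-Myc was -0.28. Slc22a17, the lipocalin 2 receptor, had a ratio of -0.02 for ΔS6 over WT, and Mmp9, a protease that forms a complex with lipocalin 2, had 0.79 and 1.72 at its 2 probe sets. The first of them, the one with the highest mean, had a ratio of 1.02 for ΔS6 over Alb-c-Myc.

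Enzymes of heme synthesis and the mitochondrial iron genes stayed within 2-fold. All 7 measured heme synthesis genes had ratios below 0 for ΔS6 over WT, from -0.93 (Alas1, the rate-limiting enzyme of the liver) to -0.12, with a median of -0.43. Against Alb-c-Myc all 7 were also below 0 in ΔS6 (-0.87 to -0.09, median -0.42). For the deletion under the transgene their median was -0.05. Of 10 genes of mitochondrial iron and iron-sulfur cluster assembly, 0 were 2-fold higher or lower in either comparison, with medians of -0.24 and -0.09. Of 9 genes of heme and hemoglobin clearance 2 were 2-fold higher in ΔS6 against WT (Cd163 and Flvcr1, median 0.36) and 0 in ΔS6:c-Myc against Alb-c-Myc (0.02). Of 5 iron-sensing proteins 0 reached 2-fold in either comparison (medians -0.17 and -0.13), and the largest ratio was that of Ireb2, an iron regulatory protein, at -0.92 and -0.54. The 14 genes of iron uptake, storage and export had medians of 0.12 and -0.03, and Steap2 was the 1 that reached 2-fold in either comparison. Ferritin light chain, Ftl1, was read only by probe sets shared with other genes, and the brightest of them differed by 0.05 and 0.12.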

How the data were processed

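RNA from livers of 3 mice per genotype was combined and hybridised to 1 Affymetrix mouse array per genotype. The authors summarised each probe set by RMA, with quantile normalization between arrays, and deposited the result on the log2 scale. RMA and affy are named in the submitters' processing notes; their versions were not given in the sources used here. Detection calls were not used, so ratios of dim probe sets are uncertain and RMA can understate large ones. Differences of log2 values were taken in 5 comparisons and counted at 2-fold. A gene took its probe set with the highest mean, and probe sets with several symbols counted only for members and list genes that had no other. Named genes were all 10 members, up to 4 genes from each of 7 pathway lists that reached 2-fold with a value of at least 6 on an array, and the 5 genes nearest Lcn2 and Hamp. Lists for 8 cell types served as markers. Members and lists were chosen with earlier results of these data known. The steps were tested on simulated data. Alternatives were other thresholds, filters, normalizations and probe set choices, and, chosen after seeing the data, Alb-c-Myc as the reference. Python 3.11.15, numpy 2.4.6, pandas 2.3.3, statsmodels 0.14.6, biopython 1.88 and matplotlib 3.10.9 were used.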

Additional observations from a re-analysis of the deposited data

Results flagged for a closer look

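In 2 genes the log2 ratio for the Rps6 deletion had opposite signs with and without the transgene. For Tfrc it was -0.45 for ΔS6:c-Myc over Alb-c-Myc and 1.14 for ΔS6 over WT, a difference of -1.59. These are the values farthest from 0 among the 6 Tfrc probe sets, which ran from -0.45 to -0.05 and from 0.17 to 1.14. For Socs3 the log2 ratio was -0.76 and 1.11, a difference of -1.87. The differences were not tested, since each genotype has 1 array. The extent of the deletion also differs with and without the transgene. The ratios of ΔS6 over Alb-c-Myc were 0.47 for Tfrc and 0.73 for Socs3.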

How the results depend on the processing

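Of 42 counts of members at least 2-fold higher or lower under other settings, 36 stayed within 1.5 times the original. With a threshold of 4-fold the count was 2 for ΔS6 over WT, 0 for ΔS6:c-Myc over WT, 1 for ΔS6:c-Myc over ΔS6 and 0 for ΔS6:c-Myc over Alb-c-Myc. With 1.5-fold it was 1 for Alb-c-Myc over WT and 11 for ΔS6:c-Myc over ΔS6. These follow from the threshold itself. With loess the count for ΔS6:c-Myc over Alb-c-Myc was 3, against 2. Of 320 ratios of single genes 12 moved by more than the spread between probe sets and 0 of those past 2-fold changed sign. Of the 12, 9 came from taking the mean or median of a gene's probe sets. They were ratios of Tfrc (0.57 and 0.52 for ΔS6 over WT, and those for Alb-c-Myc over WT and ΔS6:c-Myc over ΔS6), Cp (0.90 for ΔS6 over WT) and Hfe (0.69 for ΔS6:c-Myc over Alb-c-Myc). Against Alb-c-Myc, ΔS6 had ratios of 0.47 for Tfrc and 0.35 for Hamp. Among the members Tfrc was the 1 gene whose 2-fold ratio was lost, under these 3 settings, while Lcn2 stayed between 5.08 and 5.15 and Hmox1 between 2.70 and 2.77 for ΔS6 over WT. The mean and median for Tfrc take in its dim probe sets. No paired analysis was possible because each genotype has 1 array, and for the same reason no array could be left out.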

Other observations

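Within the deletion, the transgene went with higher values of heme synthesis and mitochondrial iron genes. For ΔS6:c-Myc over ΔS6 all 7 measured heme synthesis genes had log2 ratios above 0 (0.12 to 0.56, median 0.22), and so had 9 of 10 genes of mitochondrial iron and iron-sulfur clusters (-0.03 to 0.64, median 0.24), against a median of 0.05 over all genes. None reached 2-fold, and no replicate spread is known for them. Both comparisons of ΔS6 with another array share the ΔS6 values.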
